A study of Aspergillus nidulans with 12 samples.

Results

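The VeA only exon 1 promoter peaks are places in the genome of the filamentous fungus Aspergillus nidulans where a peak of VeA::FLAG lay at the promoter of exon 1 of a gene and the pooled LaeA::FLAG list had no peak centre within 1000 bp. They were chosen from the 2 pooled peak lists, by the deposited annotation class (promoter-TSS, nearest feature start that of exon 1) and by the distance to the nearest LaeA::FLAG centre. Of the 5502 peaks in the pooled VeA::FLAG list, 3040 were exon 1 promoter peaks, and 1807 of these were VeA only, nearest to 1772 genes. The other 1233 had a LaeA::FLAG centre within 1000 bp and are called shared peaks here. The same rule turned round gave 441 LaeA only peaks. Both pooled lists together held 8835 peaks.

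Chromatin came from vegetative cells (Vege) grown for 24 h in the dark in glucose minimal medium. It was precipitated with anti-FLAG antibody in 3 libraries each from the VeA::FLAG strain, the LaeA::FLAG strain and the untagged WT, and with anti-rabbit IgG in 1 library of each strain. In both tagged strains the FLAG epitope was joined to the C terminus of the protein at its own gene together with the AfriboB marker, and each is 1 recombinant from a sexual cross, so strain and epitope effects cannot be told apart. The LaeA::FLAG strain carried an untagged veA. The labels do not say whether the replicates were separate cultures, so p-values measure only the spread between libraries, which may be technical.

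VeA is a velvet family protein. It enters the nucleus mainly in the dark, where it joins VelB and LaeA in a complex that links sexual development with secondary metabolism, and it also has partners of its own. Velvet proteins carry a DNA-binding fold related to that of NF-kappaB, whereas LaeA resembles methyltransferases and is not known as a DNA-binding protein. A ChIP-seq peak marks DNA recovered with the tagged protein, whether it was bound directly or through a partner.

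The 2 tagged strains were not sequenced alike. The 3 VeA::FLAG libraries held 1.71, 1.89 and 1.46 M tags, the LaeA::FLAG libraries 2.16, 0.971 and 3.70 M, and the WT libraries 7.97, 1.14 and 0.320 M. The IgG library held 2.10 M tags in VeA::FLAG, 10.6 M in LaeA::FLAG and 2.66 M in WT. The number of called peaks was 4252, 5672 and 5783 in the VeA::FLAG libraries, 2471, 2217 and 557 in the LaeA::FLAG libraries, and 134, 1831 and 201 in the WT libraries. Signal values are tags in a peak scaled to a total of 10 M, so that 1 tag was worth 5.28 to 6.87 units in a VeA::FLAG library and 31.3 units in WT replicate 3. Called peaks also differed in width between libraries, and anti-FLAG signals were not scaled for width. Signals from different libraries are therefore not on the same scale, and comparisons between them are rough.

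Signal at the VeA only peaks reached less high than at the shared peaks. The median anti-FLAG signal in the pooled list was 213 at VeA only peaks (range 106 to 1108) and 327 at shared peaks (range 116 to 4370). The VeA::FLAG IgG signal at the same peaks had a median of 16.7 at VeA only and 21.5 at shared peaks, and was 0 at 683 of the 1807 VeA only peaks (37.8%) and at 417 of the 1233 shared peaks (33.8%). With the worth of 1 IgG tag added to both signals, the median fold of anti-FLAG over IgG was 11.4 at VeA only and 14.9 at shared peaks. The peak score, with which the caller ranks peaks, had a median of 202 at VeA only and 314 at shared peaks, so that the VeA only set held fewer of the tallest peaks. These values took part in the choice of the peaks and are a description.

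Signals just outside and just inside the limit of 1000 bp overlapped. The closest peaks on the VeA only side lay 1003 bp (AN4900), 1004 bp (AN9204) and 1006 bp (AN4247 and AN5423) from a LaeA::FLAG centre, with pooled VeA::FLAG signals of 374, 145, 296 and 275. On the shared side the closest lay at 997 bp (tK(CUU)5), 996 bp (AN12341) and 994 bp (AN3830), with signals of 245, 189 and 214. The median distance to a LaeA::FLAG centre was 4266 bp over all VeA only peaks, and 325 of them lay within 2000 bp.

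The VeA only peaks sat close to the start of exon 1. In the lists exon 1 is the first exon in the direction of transcription, since it lay upstream of the later exon in all 3511 pairs whose strand could be read from the peak positions. The median centre was 115 bp upstream of this start at VeA only peaks and 195 bp upstream at shared peaks. A centre within 100 bp of the start was found for 36.6% of VeA only and 26.8% of shared peaks, and a centre downstream of it for 25.5% of VeA only and 15.2% of shared peaks. The far upstream part of the promoter, beyond 500 bp, held 12.8% of VeA only and 20.3% of shared peaks. At the LaeA only peaks the centre was downstream at 26.8% and beyond 500 bp upstream at 19.05%. Position was not tested, because the rule drew on annotation and on a distance between peaks.

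**Figure D1:**
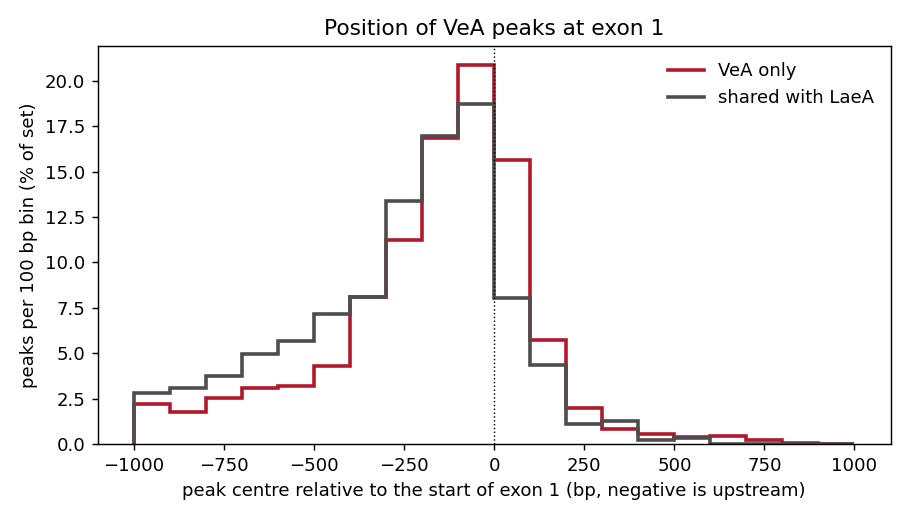
Distance of the peak centre from the start of exon 1 of the nearest gene (x axis, bp, in bins of 100 bp) as a percent of each set (y axis) for the 1807 VeA only and the 1233 shared peaks. The VeA only line is higher in the first 100 bp downstream of the start (15.6% against 8.03% of shared peaks) and lower beyond 500 bp upstream.

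At 321 VeA only peaks (17.8%) the deposited class named another gene than the nearest start, and at 192 of them (10.6% of all) it named exon 1 of that gene, so that the peak served as promoter peak of a pair of genes. The same held for another gene at 13.8% of shared and 17.5% of LaeA only peaks. Over all VeA::FLAG peaks, of every annotation class, the share was 25.1%, which also counts any peak whose class names no gene. The share that named exon 1 of another gene was not counted for the other sets. Among the peaks named below, the deposited class named AN1333 at AN1334, AN3498 at AN3499, AN8414 at AN8413 and AN2973 at AN2974. It named AN6506 at rcoA, AN8276 at cit1, AN12189 at gpaB, AN9078 at swr1 and AN7010 at arp6. At sam50 it named AN10874, at pre1 AN4456, at preB AN2521 and at jhd1 AN7456. At AN6642 it named AN6642-uORF, by its name an upstream reading frame of the same gene, which the 321 include. A tRNA gene was the nearest gene of 26 VeA only peaks (1.44%), 23 shared peaks (1.87%) and 84 of all VeA::FLAG peaks (1.53%). The 1807 peaks were spread over all 8 chromosomes, with 52.0 (chromosome V) to 68.6 (chromosome III) per Mb, and made up 57.2% (VII) to 61.1% (I) of the exon 1 promoter peaks of a chromosome. Within 100 kb of a chromosome end lay 3.32% of VeA only, 1.95% of shared and 6.35% of LaeA only peaks, against 3.40% of all VeA::FLAG peaks.

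A pooled peak need not be seen in each replicate. With centres within 100 bp counted as the same peak, VeA::FLAG replicates 1, 2 and 3 had a peak at 650 (36.0%), 785 (43.4%) and 643 (35.6%) of the 1807 VeA only peaks. Over all 5502 VeA::FLAG peaks these shares were 35.8%, 43.7% and 34.9%. At least 1 replicate had 1432 of the VeA only peaks (79.2%, against 77.0% of all VeA::FLAG peaks), at least 2 replicates had 537 (29.7%, against 30.1%) and all 3 had 109 (6.03%, against 7.29%). The remaining 375 VeA only peaks (20.8%) were called on pooled tags only. Replicates thus found VeA only peaks again about as often as VeA::FLAG peaks in general, and 546 of the 1233 shared peaks (44.3%) were found in at least 2. The replicates are the parts of the pool, so these counts describe how even the signal was and are no independent test. At least 2 replicates held 283 VeA only peaks with a limit of 50 bp between centres and 741 with 200 bp.

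**Figure D2:**
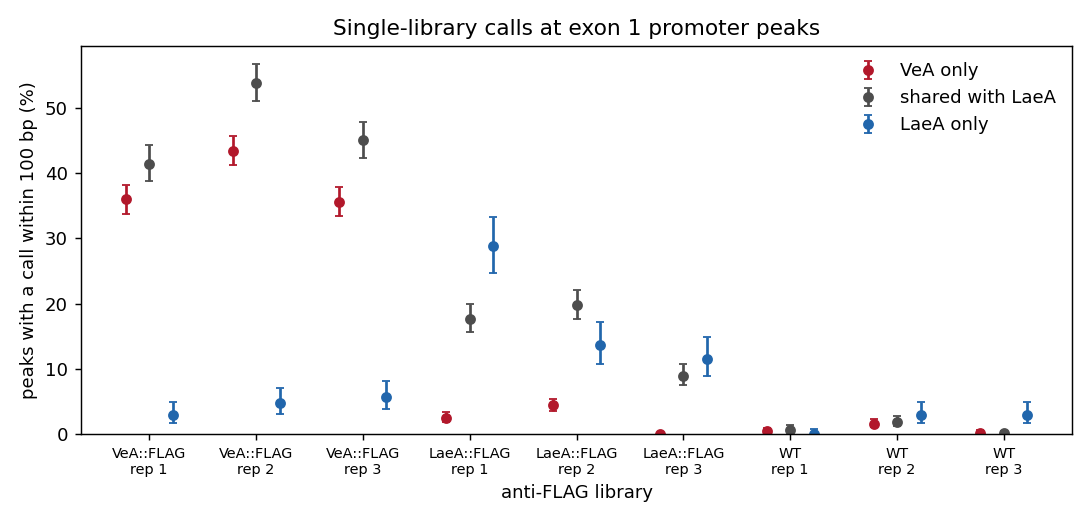
Percent of VeA only (n = 1807), shared (n = 1233) and LaeA only (n = 441) exon 1 promoter peaks (y axis) with a called peak within 100 bp in each of the 9 anti-FLAG libraries (x axis), with 95% Wilson intervals for counting error. The VeA only points lie at 35.6% to 43.4% in the VeA::FLAG libraries, at 0% to 4.43% in the LaeA::FLAG libraries and at 0.277% to 1.66% in the WT libraries. The VeA::FLAG and LaeA::FLAG libraries took part in the rule through the pooled lists, and the WT libraries did not.

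Score and replicate support went together. The median score of VeA only peaks found in 0, 1, 2 and 3 replicates was 173, 189.8, 247 and 356. The shared peaks had medians of 253, 263, 367 and 589.6 over the same steps. When the 3040 exon 1 promoter peaks were divided into quartiles of score, the share found in at least 2 replicates was, in the order from the lowest quartile to the highest, 11.8%, 24.5%, 44.5% and 62.7% for VeA only peaks. For shared peaks it was 8.54%, 29.4%, 41.4% and 62.7%. In each quartile the 95% intervals of both sets overlapped, but they count peaks and do not cover the spread between libraries. In the lowest quartile were 600 VeA only peaks against 164 shared peaks. Pooled score and replicate calls came from the tags of the same libraries, so the link between them was partly built in and is a description.

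**Figure D3:**
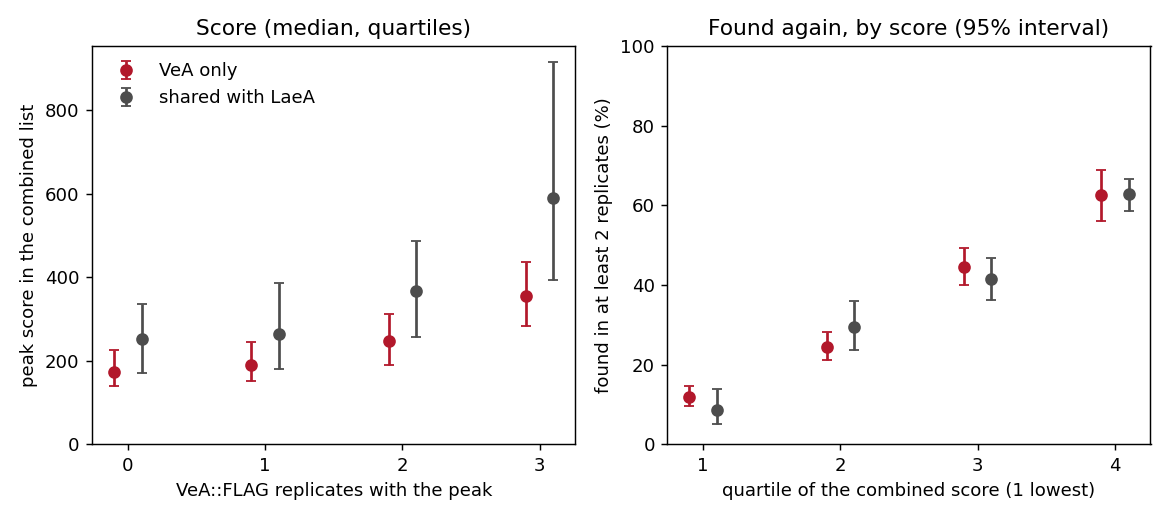
Left, score of the pooled peak (y axis, median and quartiles) by the number of VeA::FLAG replicates that held it (x axis); right, percent found in at least 2 replicates (y axis, 95% Wilson interval) by quartile of the pooled score (x axis), for VeA only and shared peaks. The score is higher with more replicates in both sets, and within a quartile the VeA only and shared points lie close to each other (62.7% for both in the highest).

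Among the 109 VeA only peaks found in all 3 VeA::FLAG replicates, the signal in replicate 1 had a median of 336 (lowest 140.4, highest 945), in replicate 2 of 312 (lowest 116, highest 1165) and in replicate 3 of 312 (lowest 124, highest 937). The spread of a single peak over the 3 replicates was 25.6% in the median (SD as a percent of the mean, range 3.53% to 75.1%). This spread includes differences in peak width between the replicates.

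The VeA only peaks with the highest pooled signal were found again in 2 or 3 VeA::FLAG replicates, with an exception at the top. AN1334 (chromosome VIII, 802104 to 802368, centre 111 bp upstream of exon 1) had a signal of 922, 1019 and 869 in VeA::FLAG replicates 1 to 3. No LaeA::FLAG or WT library had a peak there, and this was the VeA only peak with the best worst rank over the replicates (rank 100 or better in each). AN5523 (chromosome V, 2521310 to 2521574, 32 bp downstream) had 828, 1117 and 594. AN5070 (chromosome III, 83842 to 84106, 148 bp upstream) had 603, 1165 and 800.1. Without scaling for peak width, replicate 1 was lowest here and replicate 3 at AN5523. AN6359 (chromosome I, 416352 to 416616), AN2581 (chromosome VII, 4428847 to 4429111) and AN10120 (chromosome VIII, 2510420 to 2510684) were also among the 10 highest and present in all 3 replicates, with signals of 577 to 937. AN3499 (chromosome II, 3976523 to 3976787) had 993 and 669.6 in replicates 2 and 3 and no call in replicate 1, and AN6642 (chromosome I, 2709535 to 2709799) had 831 and 793 in replicates 1 and 3 and no call in replicate 2. A LaeA::FLAG library had a call at AN6642 (839.7 in replicate 2) and at AN2581 (515 in replicate 1). The table used here gives no symbol for these genes. AN3321, AN10601, AN3221 and AN2913 completed the 10 peaks with the best worst rank, with signals of 519 to 728 over the 3 replicates. A LaeA::FLAG library had a peak 180 bp from the centre at AN2913, 506 bp at AN3221 and 658 bp at AN3499.

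The exception was AN10461. The 2 VeA only peaks with the highest score of all (1110.1 and 968) lay next to each other at this gene, on chromosome II at 3005267 to 3005531 and 3004686 to 3004950. Neither was found in any VeA::FLAG replicate. VeA::FLAG replicates 1 and 3 had a peak 1240 and 1217 bp from the centre of the second, and LaeA::FLAG replicates 1 and 3 had one 1277 and 1184 bp from it, where both pooled lists also had a peak. WT replicate 3 had a peak 248 bp from it with a signal of 2189. The region thus also had signal in 1 library of the untagged strain, and its peaks are VeA only because the nearest LaeA::FLAG centres lay beyond 1000 bp.

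**Figure D4:**
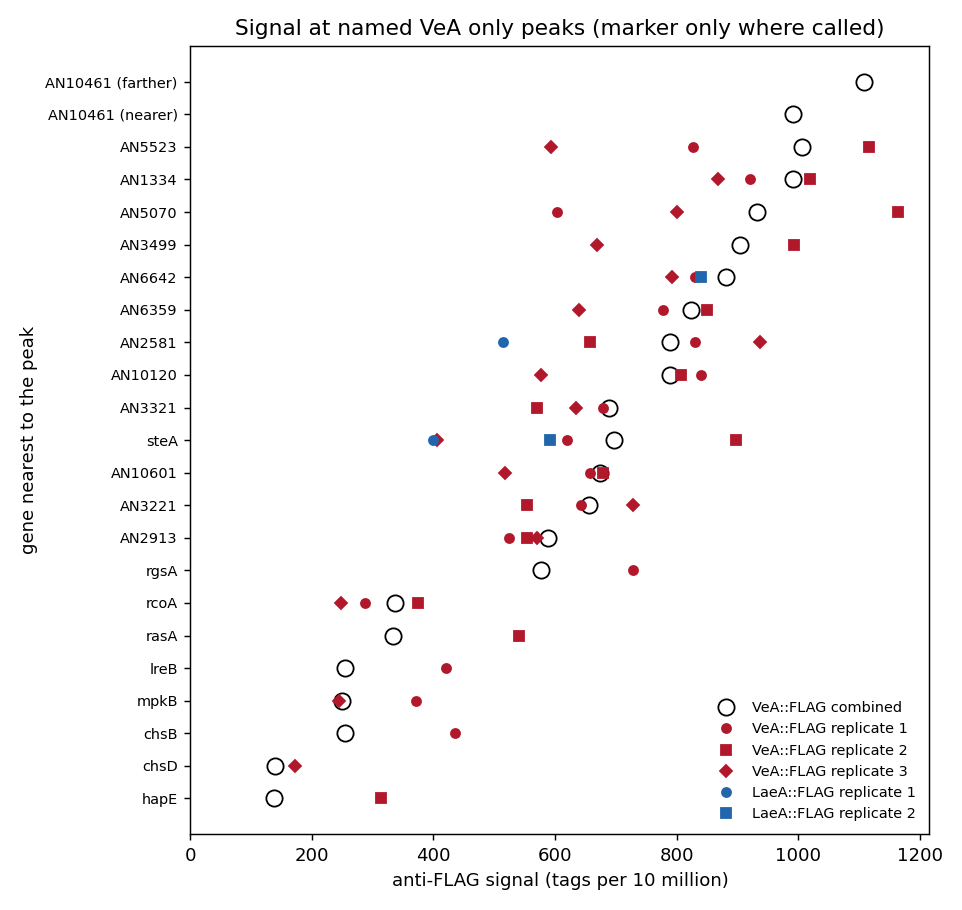
Anti-FLAG signal (x axis, tags per 10 M) at the 10 VeA only peaks of highest score, the 10 with the best worst rank and those near genes of the lists (y axis, gene nearest to the peak; AN10461 has 2). Open circles are the pooled VeA::FLAG list, filled red markers the VeA::FLAG replicates and blue markers LaeA::FLAG replicates 1 and 2, drawn only where a peak was called within 100 bp; AN10461 has no replicate marker, and AN1334 has 3 between 869 and 1019. Signals are not scaled for peak width, which differed between libraries.

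The single LaeA::FLAG libraries had calls at some of these peaks although the pooled list did not. LaeA::FLAG replicates 1, 2 and 3 had a peak within 100 bp of 46 (2.55%), 80 (4.43%) and 0 of the 1807 VeA only peaks, against 218 (17.7%), 244 (19.8%) and 111 (9.0%) of the 1233 shared peaks. Over all VeA::FLAG peaks the shares were 7.58%, 8.65% and 3.34%. The LaeA::FLAG libraries are the parts of the pooled list by which the rule left peaks out. Lower shares at VeA only peaks were thus set by the rule and are no independent test. In all, 122 VeA only peaks (6.75%, against 15.3% of all VeA::FLAG peaks) had a peak in at least 1 LaeA::FLAG library. The count was 80 without LaeA::FLAG replicate 1 and 46 without replicate 2. Within 1000 bp there was such a peak at 477 VeA only peaks (26.4%), and of the other 1330 373 (28.0%) were found in at least 2 VeA::FLAG replicates. The share within 1000 bp was not counted for shared peaks or all VeA::FLAG peaks, so whether 26.4% is low or high cannot be said.

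Calls in at least 2 LaeA::FLAG libraries were found at 4 VeA only peaks (0.221%, against 3.45% of all VeA::FLAG peaks), and they are named here after their values were seen. The rule made this share low as well. At steA (AN2290, chromosome VII, 3459692 to 3459956, 279 bp upstream of exon 1), which encodes a homeodomain transcription factor needed for sexual fruiting bodies, the signal was 620.2, 898 and 405 in VeA::FLAG replicates 1 to 3, against 399 and 592 in LaeA::FLAG replicates 1 and 2. The nearest pooled LaeA::FLAG centre was 1121 bp away, where the pooled VeA::FLAG list had a second peak. AN7619 had 322, 523 and 491 in the VeA::FLAG replicates, against 385 and 443 in the same LaeA::FLAG replicates. AN2974 had 231, 394 and 378 in VeA::FLAG, against 510.0 and 706 in LaeA::FLAG. AN8413 had 613 in VeA::FLAG replicate 2 alone, against 559 and 567 in LaeA::FLAG. At AN2974 the LaeA::FLAG values were above all the VeA::FLAG values, and at steA and AN7619 the ranges overlapped. Peak widths differed between these libraries and the values were not scaled for width, so which strain had more signal cannot be read from them.

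The WT libraries, which took no part in the rule, give the background of the antibody. WT replicates 1, 2 and 3 had a peak at 9 (0.498%), 30 (1.66%) and 5 (0.277%) of the 1807 VeA only peaks, and at 9 (0.730%), 24 (1.95%) and 2 (0.162%) of the 1233 shared peaks. Over all VeA::FLAG peaks these shares were 0.491%, 1.80% and 0.200%. The mean share was 0.812% ± 0.743 for VeA only and 0.946% ± 0.912 for shared peaks (SD, n = 3 libraries). The difference of -0.135 percentage points was smaller than the spread between libraries (lower in 2 of 3 libraries, exact two-sided sign permutation p = 0.5, adjusted p = 0.5 over 2 comparisons). At the LaeA only peaks the mean was 1.97% ± 1.70, and the VeA only share was lower by 1.15 percentage points (lower in 2 of 3 libraries, exact p = 0.5, adjusted p = 0.5). With 3 libraries the smallest two-sided p is 0.25, so this design could not show a difference.

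At least 1 WT library had a peak at 43 VeA only peaks (2.38%, against 2.40% of all VeA::FLAG peaks), and the count was 14 without WT replicate 2, the WT library with most peaks. The highest WT signals stood at AN9256 (2174), the microtubule plus end gene eb1 (AN2862, 1923) and AN1686 (1142), all in WT replicate 3, the library with the fewest tags. The VeA::FLAG signal was 229.8 in replicate 2 at AN9256, 512 and 246 in replicates 1 and 2 at eb1, and 257 in replicate 1 at AN1686, below the WT value at each of the 3. LaeA::FLAG replicate 2 also had a call at AN9256 (680) and at eb1 (505), and a LaeA::FLAG library had a peak 244 bp from the centre at AN1686. AN2832 was the 1 VeA only peak with calls in at least 2 WT libraries (0.0553%, against 0.0909% of all VeA::FLAG peaks), with 338 and 876 in WT replicates 2 and 3, and it had no call in a VeA::FLAG replicate.

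The IgG libraries differed at these regions. The deposited IgG values belong to merged regions, here scaled to the 265 bp of a pooled VeA::FLAG peak. The median scaled signal at VeA only peaks was 29.4 in the VeA::FLAG IgG library, 108 in the LaeA::FLAG IgG library and 87.9 in the WT IgG library. At shared peaks it was 36.2, 106 and 99.6 in the same order, and at LaeA only peaks 78.0, 82.5 and 84.6. The VeA::FLAG IgG median was thus lower at both kinds of VeA::FLAG peak than at LaeA only peaks, and the LaeA::FLAG IgG median was lowest at LaeA only peaks. The IgG library of a strain took part in calling its peaks. A LaeA::FLAG peak was called against the LaeA::FLAG IgG library, at more than 2-fold by the study's methods. The pooled VeA::FLAG signal itself was below 2 times the scaled LaeA::FLAG IgG signal at 822 VeA only peaks (45.5%), against 188 shared peaks (15.2%) and 38.2% of all VeA::FLAG peaks. It was at or above this level at 985 VeA only peaks, of which 379 (38.5%) were found in at least 2 VeA::FLAG replicates, against 29.7% of all VeA only peaks. Such a filter keeps peaks of higher signal, and replicate support went with score in general. This share was not counted for shared peaks or all VeA::FLAG peaks. The part of the IgG libraries in the division between VeA only and shared peaks was not tested.

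**Figure D5:**
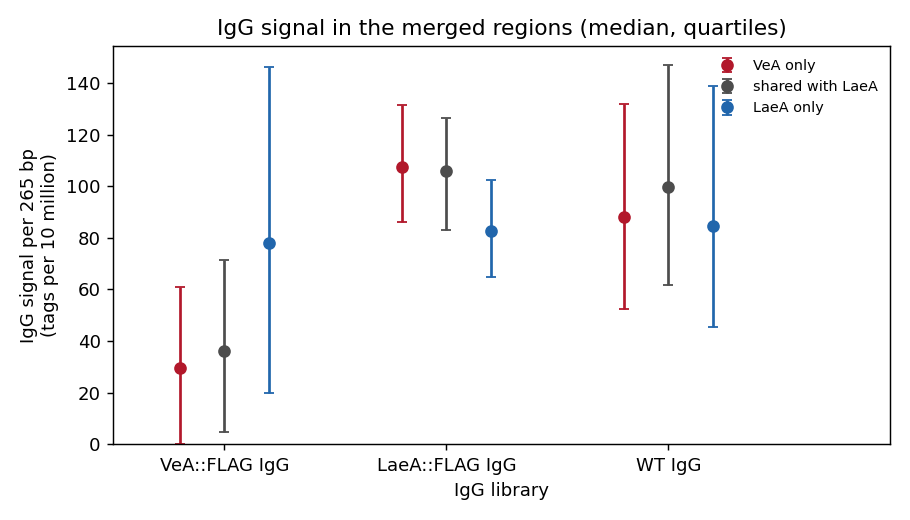
IgG signal in the merged regions that hold the peaks, scaled to 265 bp (y axis, tags per 10 M, median and quartiles), in the IgG library of each strain (x axis; 1 library each, no replicates) for VeA only, shared and LaeA only peaks. The VeA only median is 29.4 in the VeA::FLAG IgG library, against 108 and 87.9 in the LaeA::FLAG and WT IgG libraries.

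A VeA only peak was nearest to 9 genes of the lists. Of 150 gene symbols in 11 lists, 64 were in the symbol table, and 9 of these (14.1%) were nearest to a VeA only peak, against 20.3% of the 780 genes with a symbol (158 genes) and 15.9% of all 10516 genes of the table. Shared peaks lay at 23 of the 64 (35.9%, against 17.9% of the genes with a symbol and 10.6% of all genes) and LaeA only peaks at 3. None of 5 matched genes of the velvet and LaeA complex had a VeA only peak, whereas veA, velB, vosA and laeA had a shared one. None of 11 matched genes of asexual development had one either, while flbA, flbB, flbC and medA, regulators of conidiation, had a shared peak. The lists of trehalose, glycolysis and amino acid metabolism (6 matched genes, 3 with a shared peak), secondary metabolism (1 matched) and oxidative stress (1 matched) also held no gene with a VeA only peak.

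The 9 listed genes were spread over 6 lists. In sexual development it was steA, 1 of 3 matched genes, and in light sensing lreB, 1 of 3, which encodes a zinc finger protein of the white collar type that acts with the blue light sensor LreA. In signalling there were 3 of 9, namely the MAP kinase gene mpkB, the regulator of G protein signalling rgsA and the Ras GTPase gene rasA. In nitrogen, carbon, pH and iron regulation it was hapE, 1 of 13, a subunit of the CCAAT-binding complex, whose partner gene hapB had a shared peak. In chromatin modification it was rcoA, 1 of 6, a corepressor related to yeast Tup1, and in cell wall synthesis the chitin synthase genes chsB and chsD, 2 of 6. 

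Among these 9 genes, steA and rcoA had a peak in all 3 VeA::FLAG replicates. At rcoA (AN6505, chromosome I, 2316586 to 2316850, 62 bp upstream) the signal was 287, 375 and 247, with no call in a LaeA::FLAG or WT library. The deposited class of this peak named another gene, AN6506. At mpkB (AN3719, chromosome II, 3287199 to 3287463, 207 bp upstream) it was 372 and 244 in VeA::FLAG replicates 1 and 3, with no call in replicate 2. The other 6 rested on 1 replicate each. The signal was 728 in replicate 1 at rgsA (226 bp downstream), 421 in replicate 1 at lreB and 436 in replicate 1 at chsB. It was 541 in replicate 2 at rasA, 314 in replicate 2 at hapE and 172 in replicate 3 at chsD. Of the 9 genes, only steA had a LaeA::FLAG library peak within 100 bp, and none had a WT peak. Within 1000 bp a LaeA::FLAG library also had a peak at mpkB (788 bp away) and at lreB (850 bp away).

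With the 9 listed genes included, 158 of the 1772 genes had a symbol, with 163 peaks, of which 62 (38.0%) were found in at least 2 VeA::FLAG replicates and 14 in all 3. Groups of them are described next. They were put together after the values were seen, how many genes of each kind the table holds was not counted, and nothing about a pathway follows from them. Genes of the osmotic stress phosphorelay and its kinases were tcsC (hybrid histidine kinase), skn7 (response regulator, by its yeast namesake), pbs2 (MAP kinase kinase of the yeast Hog pathway) and mpkC (a MAP kinase), while the main stress MAP kinase gene sakA had a shared peak. At skn7 (AN3688) the signal was 445, 301 and 405 in VeA::FLAG replicates 1 to 3, against 438 in LaeA::FLAG replicate 2. At mpkC (AN4668) it was 211 and 306 in replicates 2 and 3, at tcsC (AN4479) 264 in replicate 2, and pbs2 (AN0931) had no call in a replicate and a pooled signal of 207. At least 2 replicates held 2 of these 4 peaks.

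The G protein alpha subunit genes gpaA (AN0651) and gpaB (AN1016) had VeA only peaks, with 592 and 302.2 in VeA::FLAG replicates 2 and 3 at gpaA and 632 in replicate 1 at gpaB. The beta and gamma subunit genes sfaD and gpgA were nearest to LaeA only peaks. The gene of a protein kinase A catalytic subunit, pkaC (AN6305), had 2 VeA only peaks, each in 1 replicate (527 in replicate 1 at the one downstream of the start and 327 in replicate 2 at the one upstream). Small GTPase genes were arfA, found in all 3 replicates (140.4, 140.0 and 357), rho2 (325 and 203 in replicates 1 and 3), and cdc42, rab7 and rhbA with at most 1 replicate.

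The chromatin genes picked out here had 10 peaks, of which 4 (40.0%) were found in at least 2 replicates and 1 in all 3. This was near the 38.0% found in at least 2 replicates among all VeA only peaks at genes with a symbol. At asf1 (AN4891), a histone chaperone in yeast, the signal was 281, 203 and 213 in the VeA::FLAG replicates. The histone chaperone gene nap1 had 188 and 357 in replicates 2 and 3, and the elongation factor gene spt4 had 208 and 246 in replicates 1 and 2. Of the yeast SWR1 complex, which places the histone variant H2A.Z, arp6 had 137 and 158 in replicates 2 and 3 and swr1 had 405 in replicate 3. The genes nhp6, rscE and hat1 had a call in 1 replicate each. The histone methyltransferase gene set2 and the demethylase gene jhd1 had no call in a replicate. 

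At cit1 (AN8275), by its yeast namesake a citrate synthase, the signal was 322, 394 and 295 in VeA::FLAG replicates 1 to 3, and at the ribosomal protein gene rpl16a (AN4202) 527, 209 and 312. At nudA (AN0118), the dynein heavy chain, it was 345, 536 and 632 in VeA::FLAG, against 203 in WT replicate 1. Genes of mitochondrial protein import and folding were tom40 (202 and 277 in replicates 1 and 2), hsp60 (503 and 238 in replicates 1 and 2), sam50 (244 in replicate 3) and tom70 (no call in a replicate). Proteasome genes were rpt3 (295 and 306 in replicates 1 and 3), pre1 (285 in replicate 3) and pup1 (no call in a replicate). The pheromone receptor gene preB (AN2520) had 239.9, 306 and 240.4 in the 3 replicates, at a centre 725 bp downstream of the start of exon 1. Among the genes named here and in the groups above, pbs2, cit1, pup1, rho2, asf1 and gpaB had a LaeA::FLAG library peak 105 to 983 bp away.

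A gene with a VeA only peak was not always free of LaeA::FLAG. Of the 1772 genes, 208 (11.7%) were also the nearest gene of a LaeA::FLAG peak farther off, 15 (0.847%) had a shared exon 1 promoter peak besides, and 35 (1.98%) had 2 VeA only peaks. These shares were not counted for the genes of all VeA::FLAG peaks, so whether they are low or high cannot be said. VeA only therefore describes a peak and not a gene.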

How the data were processed

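Libraries were grouped by strain and antibody as labelled. According to the study's methods, reads were mapped with bowtie2 and peaks called with HOMER (4.11 in the submitters' processing notes) at more than 2-fold and P below 0.001. The signal deposited by the authors is tags per peak scaled to 10 M, per the file headers, the peak score deposited by the authors served for ranks and medians, and the focus ratio is a deposited fraction that was not interpreted. Per the file headers, pooled lists came from all 3 replicates of a strain. Coordinates are those of the FGSC A4 assembly of the files. Symbols came from a RefSeq table of ASM1142v1, used for names only, in which 1670 of 1772 genes (94.2%) were found.

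Computed here with Python 3.11.15 (pandas 2.3.3, NumPy 2.4.6, SciPy 1.17.1) were distances between peak centres (same peak within 100 bp), Wilson 95% intervals, which cover counting error only, and exact two-sided sign permutations over WT libraries with Benjamini-Hochberg adjustment. The overlap count was tested on simulated lists. The members and gene lists were chosen with earlier results of these data known. Named were the genes of the 10 members with the highest score, the 10 found in all 3 replicates with the best worst rank, listed genes, 3 peaks on each side of the limit (ties kept) and the 3 highest WT signals. Genes named by symbol outside this rule were chosen after their values were seen. No promoter sequence, strand or product names from a reference were used here, so the motif, divergent promoter and product classes planned were not run. Strand was read from peak positions only, to check the order of exons. Alternatives were other distances, a fold of 4, a 1500 bp upstream promoter, another added signal and leaving out replicates.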

Additional observations from a re-analysis of the deposited data

How the results depend on the processing

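The number of VeA only peaks was 1807, and it ranged over 1330 without peaks that had a single-library LaeA::FLAG peak within 1000 bp (chosen after seeing the data), 1336 with a fold of at least 4 and 2510 with a LaeA::FLAG distance of 100 bp. With the requirement, also chosen after seeing the data, of a signal at least 2 times the scaled LaeA::FLAG IgG signal it was 985. Peaks found in at least 2 replicates numbered 537, with 283 at 50 bp between centres, 741 at 200 bp and 212 to 280 when 1 VeA::FLAG replicate was left out and both others had to hold the peak, a stricter demand by construction. A WT peak was found at 43, with 24 at 50 bp, 73 at 200 bp and 14 to 39 without 1 WT replicate. A LaeA::FLAG single-library peak was found at 122, with 70 at 50 bp, 185 at 200 bp and 46 to 122 without 1 LaeA::FLAG replicate. The difference between VeA only and shared peaks in the share with a WT peak was -0.135 percentage points, turned to 0.0133 at 200 bp and ranged over -0.259 to -0.0587 without 1 WT replicate (cause not tested). With a LaeA::FLAG distance of 100 bp it was -0.551 percentage points (exact two-sided sign permutation p = 0.25, the smallest that 3 libraries allow). The median fold of 11.4 became 12.5 with the signal of 0.5 IgG tags added. No paired analysis was possible because no test set libraries of one strain against those of another by replicate number, and the WT test was itself made on differences within each library. Precision was limited by depth in WT replicate 3, with 0.320 M tags, and by 1 IgG library per strain. The motif and divergent promoter alternatives were not run.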
